A study of Mus musculus with 12 samples.

Results

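Messenger RNA of 8 genes was followed probe by probe in mouse lung tumours labelled as knocked out (KO) or wild type (WT) for Dnmt3a, which places new methyl groups on DNA. The members were Pla2g4b, Ywhaz, Bet1l, Pam, Dusp12, Rab7b, Tmem87a and Serinc3. They were picked as genes with variable KO over WT ratios that depend on the probe, 1 or more of their probes differing between tumour pairs. The differences between pairs and between probes below therefore describe the members and are given without a test. Every probe named for a member was taken, which gave 19 probes for 8 of the 27962 gene names on the array. Rab7b stands in the files under its older name 5430435G22Rik and was matched by its accession NM_145509.

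On each of 12 arrays with a red (Cy5) and a green (Cy3) channel, KO tumour RNA was hybridised together with WT tumour RNA. All animals had a mixed C57/129 background, and KO and WT animals alike carried a further allele that Cre recombinase acts on. The KO animals were homozygous for a conditional Dnmt3a allele. Cre was delivered to the airways of KO and WT animals alike by adenovirus, so the cells that recombined were those the virus reached. By ages and sexes in the labels the arrays formed 4 pairs, and the ages come without a unit. Pair A set a KO male of age 47.7 against a WT male of age 42.6 on 4 arrays, and pair B set ages 27 and 41.3, both male, on 4 arrays. Pair C set a KO male of age 27 against a WT female of age 47.6 on 2 arrays, and pair D set males of ages 29.1 and 37.3 on 2 arrays. The labels leave unsaid if arrays within a pair came from separate animals, and the KO males of pair B and of pair C, equal in age, may be 1 animal. Spread and p-values therefore measure the differences between these arrays, which may be technical.

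Pairs A and B filled slides 1 and 2, and pairs C and D shared slide 3. On slide 3 the share of probes well above background was 59.0% to 72.2%, lower than the 81.7% to 89.6% of the other slides. Pair and slide cannot be told apart except between pairs C and D. KO RNA was in Cy5 on both arrays of pair C and in Cy3 on both of pair D, so the dye orientation does not balance within either. The 3 probes of the targeted gene Dnmt3a were lower in KO RNA, by log2 changes of -0.55 ± 0.07, -0.25 ± 0.05 and -0.21 ± 0.05 (SE, n = 12 arrays, limma, adjusted p = 0.00265, 0.0158 and 0.0217). The second of these calls was lost with median centring (adjusted p = 0.0525), and the third with median centring, deposited backgrounds and Agilent's processed signals (0.133, 0.0905 and 0.0804). All 8 lung epithelium markers were well above background in both dyes on all 12 arrays.

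An array probe reports only the stretch of RNA that it matches. Probes of 1 gene can therefore read different transcripts of it, such as those with different 3' ends, and a base difference between strains under a probe can alter its signal while a neighbouring probe is untouched. In a mixed C57/129 colony each animal carries its own combination of C57 and 129 alleles. The alleles of the animals at the members and the letters of the probes were not analysed here, so what part either had in the ratios was not tested.

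Each probe was summarised by its mean log2 KO over WT ratio in each pair and by the range of these 4 means. The median range was 1.39 over the 19 member probes and 0.35 over all probes kept. Of the member probes, 12 had a range of at least 1 and 5 a range of at least 2, where 7.97% and 1.06% of 35349 probes did. On 13 of the 19, every array of 1 pair was above 0 and every array of another below 0, which was so for 29% of 34463 probes with a value on all arrays. These shares are what the members were chosen on.

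**Figure D1:**
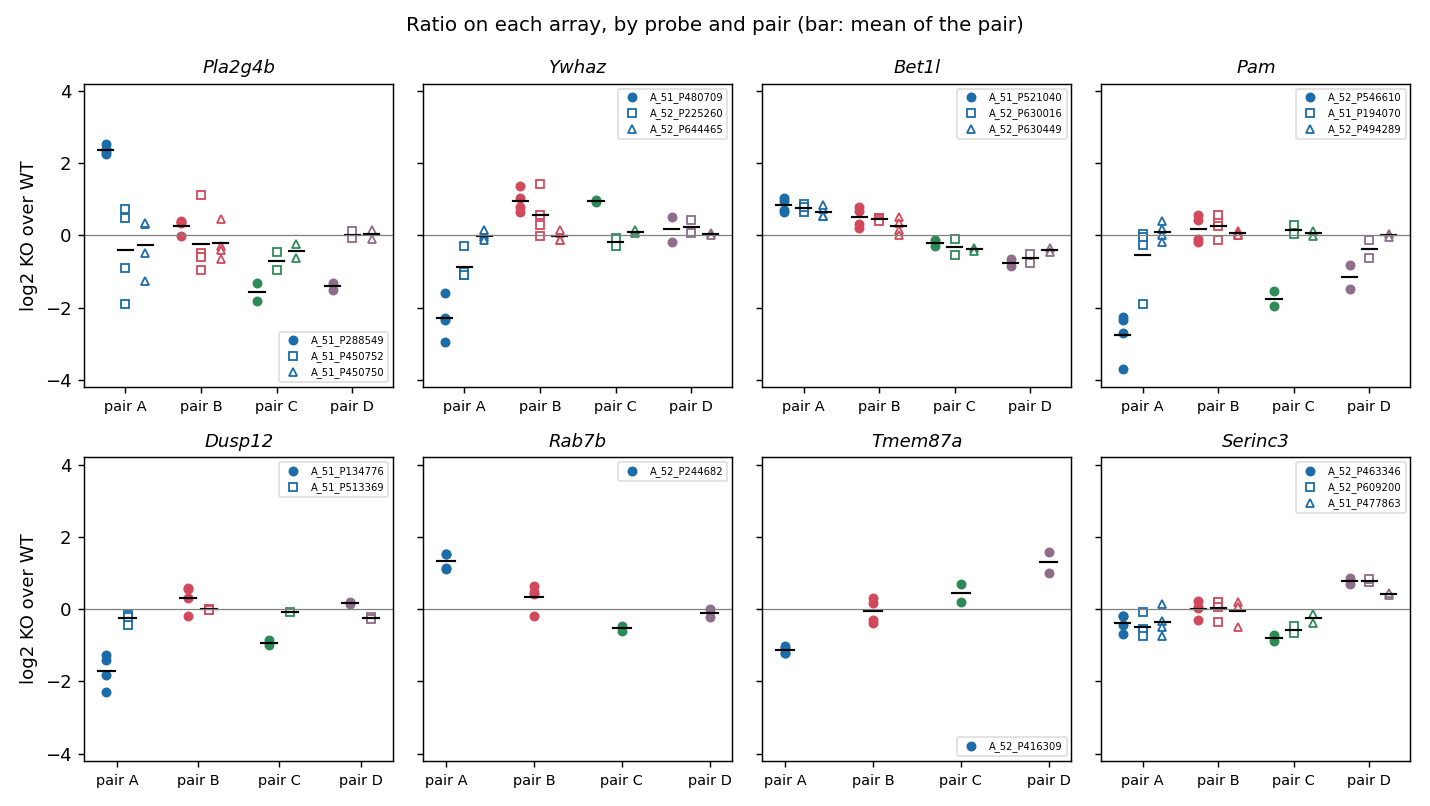
The vertical axis is log2 KO over WT on each array and the horizontal axis the tumour pair, with 1 panel per gene, 1 symbol per probe and a bar at the mean of the pair. Filled symbols are the lead probe, which has the widest range. The lead probes of Pla2g4b, Ywhaz, Pam and Dusp12 span more than their gene's other probes, and the 3 probes of Bet1l have the same sign in every pair.

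The members split by how their probes related to each other. Of 6 members with 2 or more probes, 4 (Pla2g4b, Ywhaz, Pam and Dusp12) had a lead probe whose range was at least 1 and exceeded that of the gene's least variable probe by at least 1. That size rule was passed by 333 of 7750 genes with 2 or more kept probes, or 4.3%. Differences between probes are part of what the members were chosen on, so nothing is read from their own count. Bet1l and Serinc3 did not pass it. The 3 Bet1l probes differed in range by 0.54 at most. The 3 Serinc3 probes were all above 0 in pair D and below 0 in pairs A and C but differed in size, with pair C at -0.80 on the lead probe and -0.25 on the narrowest. Rab7b and Tmem87a have 1 probe each and cannot be compared in this way. The difference in range was 1.77 for Dusp12, the lowest of the members that passed, and 0.79 for Serinc3, the highest of those that did not.

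**Figure D2:**
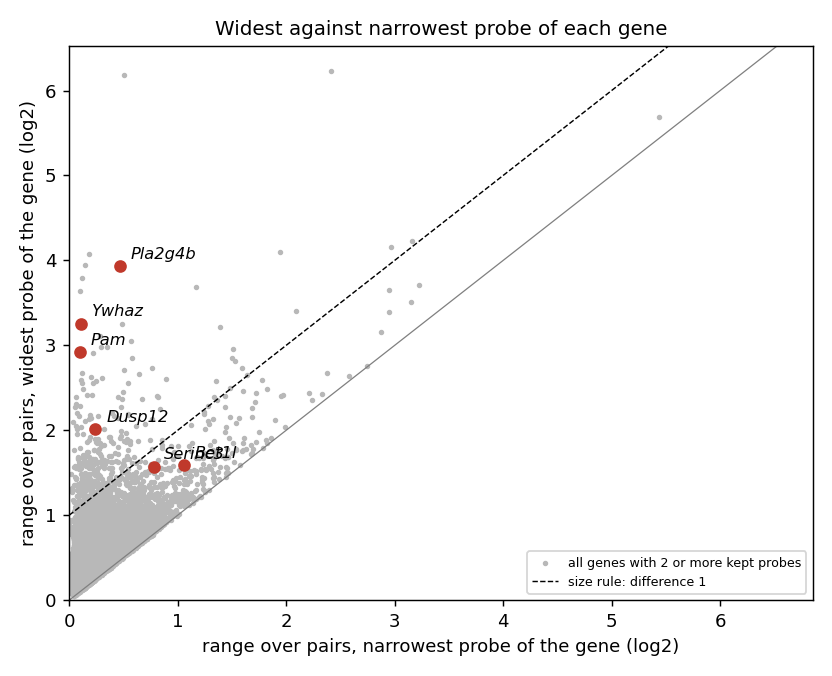
Each point is a gene with 2 or more kept probes, with the range over pairs of its narrowest probe across and of its widest probe upward (both log2). Pla2g4b (0.47 and 3.94), Ywhaz (0.11 and 3.26), Pam (0.10 and 2.92) and Dusp12 (0.24 and 2.01) lie above the dashed line of a difference of 1, and Serinc3 and Bet1l lie below it.

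Pla2g4b encodes a cytosolic phospholipase A2, an enzyme that cuts fatty acids from membrane phospholipids. Its lead probe A_51_P288549 (accession BC016255) lies at chr2:119773083-119773142 on the plus strand of build mm7. The log2 KO over WT ratio was 2.31, 2.54, 2.39 and 2.25 in pair A and -0.03, 0.34, 0.38 and 0.40 in pair B. It was -1.81 and -1.31 in pair C and -1.50 and -1.31 in pair D. Pair A was thus high on all 4 arrays, pairs C and D were low on all 4, and none of these overlapped pair B. The range of 3.94 was matched or passed by 16 of 35349 probes, and it was 19.9 times the spread between arrays of a pair (SD 0.20). Between pairs A and B alone, without slide 3, the means differed by 2.10.

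The levels of the Pla2g4b lead probe fell into a high and a low set of RNAs. They are given as log2 signal after the channels were brought to a common scale. KO or WT RNA of a pair counts here and below as 1 RNA, although its arrays may hold separate animals. KO RNA of pair A stood at 10.45 ± 0.12 (SD, n = 4), WT RNA of pair C at 9.75 ± 0.16 and WT RNA of pair D at 9.42 ± 0.06 (SD, n = 2 each). The other 5 RNAs had means between 7.65 and 8.19, so that a gap of 1.23 parted the sets. High RNAs occurred in both genotypes, and low ones too. The probe was well above background in both dyes on all 12 arrays.

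The other Pla2g4b probes, A_51_P450752 and A_51_P450750 (both BC098210), start 9641 and 9566 bases from the lead probe and 75 bases from each other. Their ranges were 0.74 and 0.47, and both ratios were below 0 on 8 of 12 arrays. They did not share the pattern of the lead probe (r = -0.04 and -0.06 over 12 arrays, which may share RNAs within a pair, as a description). With each other they moved closely, also within pairs, where the correlation of their deviations from the pair means was 0.987. On pair A the first of them read 0.73, -1.90, -0.91 and 0.48, a spread (SD 1.23) wider than its range over pairs. The lead probe varied by an SD of 0.13 on the same 4 arrays. The name of all 3 probes is that of the array design.

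Ywhaz encodes 14-3-3 zeta, an adaptor that binds phosphorylated proteins, many of them in growth and survival signalling. Its lead probe A_51_P480709 (NM_011740) is bright, at a mean log2 level of 13.7, and the files give it a span of only 13 bases at chr15:36881395-36881407, minus strand. The ratio was -2.95, -1.60, -2.34 and -2.29 in pair A and 0.65, 1.04, 0.79 and 1.37 in pair B. It was 0.99 and 0.92 in pair C and -0.17 and 0.51 in pair D. Pair A was low on all 4 arrays, and pairs B and C were above 0 on all 6 without overlapping it. Of the 8 RNAs, 1 stood apart: the KO RNA of pair A was at 11.88 ± 0.47 (SD, n = 4), and the other 7 had means between 13.0 and 14.8.

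The second Ywhaz probe, A_52_P225260, has the same accession and lies 4539 bases away, with a listed span of 141 bases. It was lower in KO RNA of pair A as well, at -1.10, -1.01, -1.10 and -0.31, but by less (mean -0.88 ± 0.38, SD, n = 4, against -2.29 ± 0.55 for the lead probe). Its range was 1.44, and in pair C it read -0.07 and -0.31 where the lead probe read above 0. Over 12 arrays the probes had r = 0.766, and 8 arrays gave both the same sign. The third probe, A_52_P644465 (AK050511), had a range of 0.11. It is listed on chromosome 1 and not 15, and it was dim (mean level 6.38), well above background in KO RNA on 5 arrays and in WT RNA on 6, so its flat ratio rests on signal near background.

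Pam encodes peptidylglycine alpha-amidating monooxygenase, which puts the amide group on the end of many peptide hormones. The lead probe A_52_P546610 (NM_013626) lies at chr1:97674031-97674090, minus strand. Its ratio was -3.69, -2.33, -2.27 and -2.70 in pair A, and 0.56, -0.11, -0.18 and 0.41 in pair B. In pair C it was -1.95 and -1.55, and in pair D -1.49 and -0.83. KO RNA was thus lower on all 8 arrays of pairs A, C and D, and pair B scattered about 0. By level, KO RNA of pair D and WT RNA of pairs A, C and D had means between 9.79 and 11.0, and the other 4 RNAs between 7.57 and 8.19. Pair B had both of its RNAs in the low set (7.74 ± 0.36 in KO and 7.57 ± 0.08 in WT, SD, n = 4 each).

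A second Pam probe of the same accession, A_51_P194070, starts 73856 bases away and had a range of 0.80. Its ratio in pair A was -1.89 on array 1 but between -0.27 and 0.04 on arrays 2 to 4. Array 1 is also where the lead probe was lowest, and both probes read their highest WT level there (12.7 for the lead probe and 10.2 for the second). The levels of the second probe ordered the RNAs differently: those of pairs C and D, KO and WT alike, had means between 9.34 and 9.72, and those of pairs A and B between 8.14 and 8.75. Pairs C and D are the ones on slide 3, and what part the slide had was not tested. The third probe, A_52_P494289 (AK053025), had a range of 0.10 at a mean level of 6.55 and was well above background in each genotype on 8 arrays.

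Dusp12 encodes a dual-specificity phosphatase, an enzyme that removes phosphate from serine, threonine and tyrosine. Its lead probe A_51_P134776 (NM_023173) is at chr1:170850726-170850782, minus strand. The ratio was -1.27, -2.29, -1.83 and -1.41 in pair A and -1.0 and -0.85 in pair C. It was 0.57, 0.56, 0.30 and -0.19 in pair B and 0.20 and 0.14 in pair D. Pairs A and C were below 0 on all 6 arrays and did not overlap pairs B and D. The level means spread over 0.91 among the KO RNAs and over 2.48 among the WT RNAs (highest at 13.3 for pair A and lowest at 10.8 for pair B). The other probe, A_51_P513369 (AK010841), is listed 11342 bases away on the plus strand and had a range of 0.24. It was dim (mean level 7.22) and has no ratio on array 10, so its mean in pair C rests on 1 array.

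**Figure D3:**
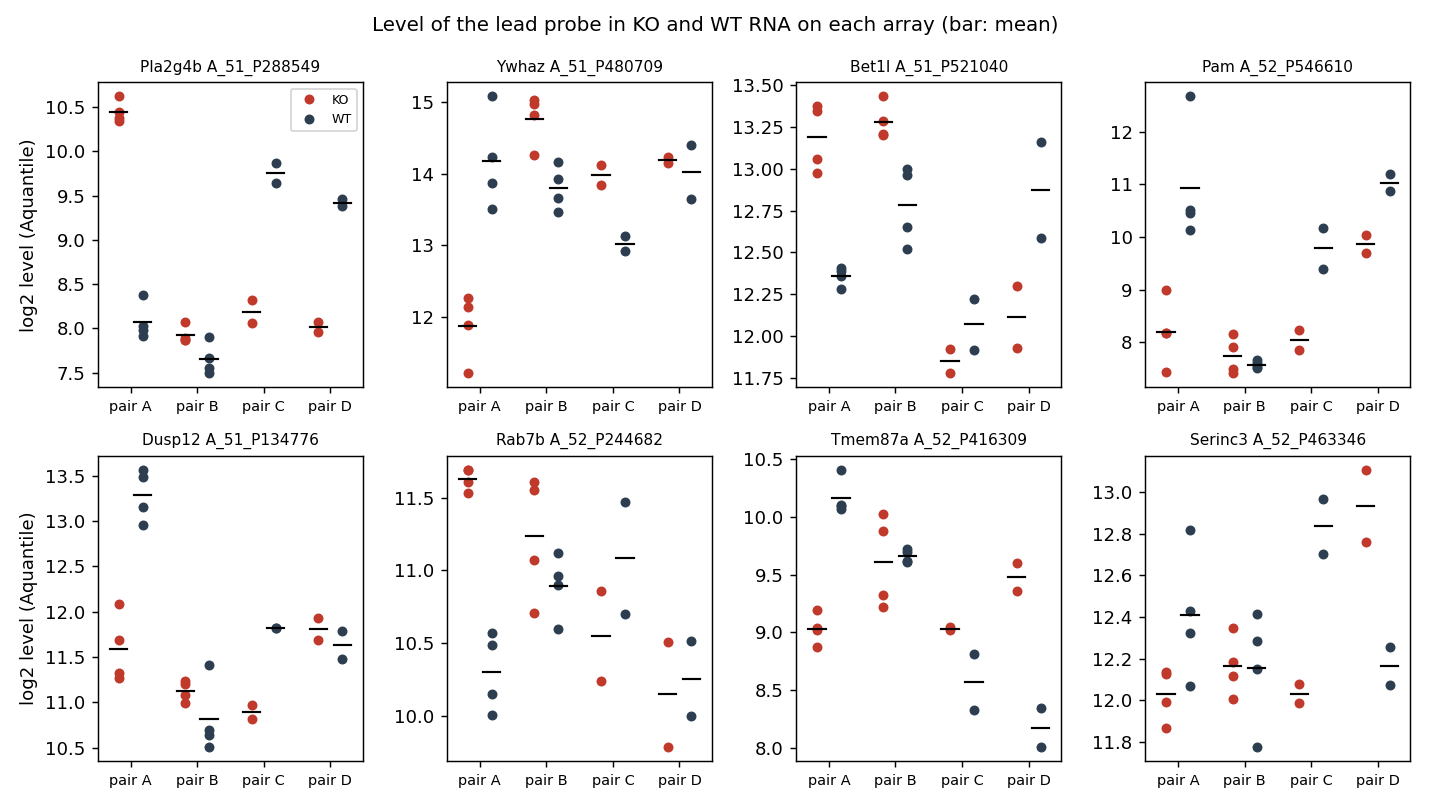
The log2 level of each member's lead probe is plotted for KO RNA (red) and WT RNA (dark) of every pair, 1 point per array with a bar at the mean, and each panel has its own vertical scale. Pla2g4b and Pam part into high and low RNAs, and Ywhaz and Dusp12 have 1 RNA apart from the other 7.

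Tmem87a encodes a membrane protein of the Golgi, and its 1 probe, A_52_P416309 (NM_173734), lies at chr2:120096808-120096867, minus strand. The ratio was -1.21, -1.08, -1.22 and -1.03 in pair A, 0.21 and 0.71 in pair C, and 1.01 and 1.59 in pair D. In pair B it read 0.18, -0.39, -0.30 and 0.30. Pair A was the only pair with every array below 0, and pairs C and D were above 0 throughout. The level means spread over 0.58 among the KO RNAs and over 1.98 among the WT RNAs, with WT RNA of pair A highest (10.2) and WT RNA of pair D lowest (8.18). The range was 2.43 over all pairs and 1.08 between pairs A and B alone.

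Rab7b encodes a small GTPase of late endosomes and the Golgi, and its 1 probe, A_52_P244682, lies at chr1:131608159-131608218, plus strand. The ratio was 1.12, 1.54, 1.52 and 1.12 in pair A and 0.48, 0.64, -0.19 and 0.43 in pair B. It was -0.61 and -0.46 in pair C and -0.003 and -0.21 in pair D. The 4 arrays of pair A did not overlap those of any other pair. The range was 1.86 over all pairs and 0.99 between pairs A and B alone. The levels formed a continuous order, with no gap above 0.39 between neighbouring RNA means.

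Bet1l encodes a SNARE protein of the Golgi, part of the machinery by which vesicles fuse with their target membrane. Its 3 probes share accession NM_018742, and their starts lie within 1489 bases on chromosome 7. The lead probe A_51_P521040 (chr7:137271768-137271827, minus strand) read 1.02, 0.65, 0.96 and 0.69 in pair A and 0.78, 0.20, 0.69 and 0.32 in pair B. It read -0.14 and -0.30 in pair C and -0.66 and -0.86 in pair D. The 3 probes gave the same sign on all 12 arrays, above 0 in pairs A and B and below 0 in pairs C and D, and their ranges were 1.59, 1.39 and 1.05. Since pairs C and D are also those of slide 3, slide and pair cannot be told apart here, and between pairs A and B alone the lead probe's means differed by 0.33.

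Serinc3 encodes a multipass membrane protein of the serine incorporator family. Its 3 probes (all NM_012032) start within 1937 bases on chromosome 2, and the lead probe A_52_P463346 is at chr2:163364240-163364299, minus strand. That probe read 0.85 and 0.69 in pair D and -0.89 and -0.72 in pair C. It was -0.20, -0.19, -0.69 and -0.44 in pair A, and between -0.30 and 0.23 in pair B. Pair D was high and pair C low on every array, a difference of 1.57 within 1 slide, although the 2 pairs carried opposite dye orientations. Pairs A and B alone differed by 0.39. The probes A_52_P609200 and A_51_P477863 followed with ranges of 1.36 and 0.78, and they are the brightest of the 19 (mean levels 15.5 and 14.9, no saturated spot).

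The dye term, the part of the red over green ratio that keeps its sign when the dyes are swapped, is a measure that the choice of members did not use. It was called for 1 of the 19 member probes, against 1.97% of 35562 probes (limma, adjusted p under 0.05). This was the lead probe of Bet1l, with 0.20 ± 0.04 log2 Cy5 over Cy3 (SE, limma, adjusted p = 0.0421). The fit held all 12 arrays, but the estimate of the dye term came from pairs A and B alone (n = 4 arrays each). Pairs C and D each hold 1 dye orientation and add nothing to that estimate, for this probe or any other. The call did not hold when any of arrays 1 to 10 was left out (adjusted p of 0.0619 to 0.142 without them). The median size of the dye term was 0.10 over the members and 0.08 over all probes. For the Pla2g4b lead probe it was -0.06 ± 0.07 (adjusted p = 0.692) and for the Pam lead probe -0.11 ± 0.17 (adjusted p = 0.785), far below their differences between pairs. For the Ywhaz lead probe it was larger, at -0.30 ± 0.11 (adjusted p = 0.179).

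Fitted as 1 KO over WT difference across all pairs, none of the 19 member probes was called (limma with pair as a random block, adjusted p under 0.05), where 5.72% of 35562 probes were. At an unadjusted p under 0.05 the count was 2 of the 19, where it was 7455 of all 35562 probes. The nearest was the Pam lead probe, at -1.35 ± 0.36 (SE, n = 12 arrays, adjusted p = 0.0519). With Agilent's processed signals, or without array 5, the fit called 1 member probe. In bulk tumour RNA, fewer cells of a type and less RNA per cell cannot be told apart. Endothelial markers were lower in KO RNA for 4 of 4 genes (Pecam1, Cdh5, Tek and Erg, median log2 change -0.74), with summed levels of 11.3 to 11.8 in KO and 12.0 to 12.8 in WT RNA. Their medians were -0.75, -0.61, -0.69 and -1.08 in pairs A to D. No leukocyte or fibroblast marker was called (0 and 2 of 4 each at an unadjusted p under 0.05), nor any lung epithelium marker (1 of 8 at an unadjusted p under 0.05). The array count at that threshold is the 7455 of 35562 probes given above. Between pairs, 4 of the 8 epithelium, 2 of the 4 fibroblast and 1 of the 4 leukocyte markers had a range of at least 1. Of all probes, 7.97% had such a range. No marker was called by the limma F test between pairs. Its adjusted p was 0.918 for Sftpc, 0.982 for Sftpa1, 0.552 for Krt8 and 0.708 for Krt18. Sftpc, a surfactant protein, had pair means of -0.24, -0.17, 0.94 and -1.40, and Sftpa1, another, had a range of 2.11. The keratins Krt8 and Krt18 had ranges of 1.60 and 1.49. The summed level of the epithelium list was 18.8 to 20.0 in KO and 19.0 to 20.1 in WT RNA. The part of cell types in the members' ratios was not tested.

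Pairs B and C shared a KO age and sex, so the KO levels of these pairs can be set side by side. The lead probe means in KO RNA of pair B and of pair C differed by -0.26 for Pla2g4b, -0.29 for Pam, 0.23 for Dusp12 and 0.13 for Serinc3. The WT RNAs of the same pairs differed by -2.10, -2.21, -1.004 and -0.68 for these genes. For these 4 members the difference between pairs B and C thus sat in the WT RNAs. For Bet1l and Rab7b the KO RNAs differed by more than the WT RNAs. For Tmem87a both differed in the same direction, the WT RNAs by more. Ywhaz had no difference in ratio to place (pair means of 0.962 and 0.955). Pairs B and C were on slides 2 and 3, and what part the slide had in these levels was not tested. KO and WT RNA differed by 1.44 and 0.72 for Bet1l, 0.79 and 0.78 for Ywhaz, 0.69 and -0.19 for Rab7b, and 0.58 and 1.09 for Tmem87a.

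Ifi202b and Nnt, a pair of genes known to differ between the strains, were read on the same arrays. Ifi202b, an interferon-inducible gene expressed in 129 but not in C57BL/6 mice, had pair means of -2.86, 0.01, -1.18 and -0.31, a range of 2.86 (limma F test between pairs, adjusted p = 0.00345). Its level in pair A was 6.10, 6.53, 5.85 and 6.14 in KO RNA, against 9.64, 9.19, 8.41 and 8.81 in WT RNA of the same arrays. In pair B, KO RNA (6.10 to 6.38) and WT RNA (6.10 to 6.34) were both low, and in pair D KO RNA read 7.41 and 7.37 and WT RNA 7.63 and 7.75. KO RNA was well above background on 7 of 12 arrays and WT RNA on 9. It was not in KO RNA of pair C on either array, in KO RNA on array 1, or in one or both RNAs of every array of pair B, so the range and its F test rest in part on signal at background. Ifi202b lies 3.08 Mb from the Dusp12 lead probe on chromosome 1. The 4 Nnt probes, for an enzyme of the mitochondrial inner membrane that is disrupted in C57BL/6J, had ranges of 0.55 to 1.38 and none was called between pairs (adjusted p of 0.402 to 0.625) or for KO over WT (adjusted p of 0.347 to 0.661).

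Members lay on chromosomes 1 (Pam, Dusp12 and Rab7b), 2 (Pla2g4b, Tmem87a and Serinc3), 7 (Bet1l) and 15 (Ywhaz). None was on chromosome 12, which holds Dnmt3a. The lead probes of Pla2g4b and Tmem87a lie 324 kb apart on chromosome 2 and ran in opposite directions over the pairs (r = -0.905 over 12 arrays, given as a description because arrays of a pair may share their RNAs or animals). Pair A was highest for Pla2g4b (2.37) and lowest for Tmem87a (-1.13).

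Around the Pla2g4b lead probe, 166 other kept probes with values on all arrays lay within 2 Mb, a window chosen after the values were seen. Of these, 3 had r of at least 0.8 with it, or 1.81%, where 0.232% of all such probes on the array did. The closest likeness was a probe named Hisppd2a in the files, 1315 kb away (A_52_P529790, r = 0.951), with pair means of 1.13, 0.02, -1.85 and -1.56. Hisppd2a is listed as an older name of Ppip5k1, an inositol pyrophosphate kinase. A second probe of that gene, A_52_P629821, ran the other way (r = -0.741, pair means -0.59, -0.29, -0.21 and 0.17), so this neighbour too had ratios that depended on the probe. Zfp106, which encodes a zinc finger protein, gave the same picture. Its probe A_51_P390826 had r = 0.879 and a range of 1.51, and its other 3 probes had r between -0.418 and -0.148 and ranges of 0.40 to 0.73. The third such probe was of Ccndbp1 (r = 0.802), with a range of 0.66.

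Around the Bet1l lead probe, 4 of 149 probes within 2 Mb had r of at least 0.8, or 2.69%, where 0.250% of the array did. Of the 4, 3 lay within 92.9 kb and are described next. The probe named ENSMUST00000035300, 8.32 kb away, had pair means of 1.92, 1.06, -0.01 and -1.55, a wider range (3.48) than Bet1l itself. Sirt3, a mitochondrial deacetylase, had 0.87, 0.85, -0.17 and -0.42, and Pgghg, an enzyme that trims glucose from collagen, had 1.07, 0.85, 0.14 and -0.28. Ric8a, which acts on G protein alpha subunits and is the nearest gene after Bet1l, had r = 0.740 with a range of 1.16. Where genes lie this close, reads of overlapping transcripts by 1 probe were not checked, since no genome was used here.

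**Figure D4:**
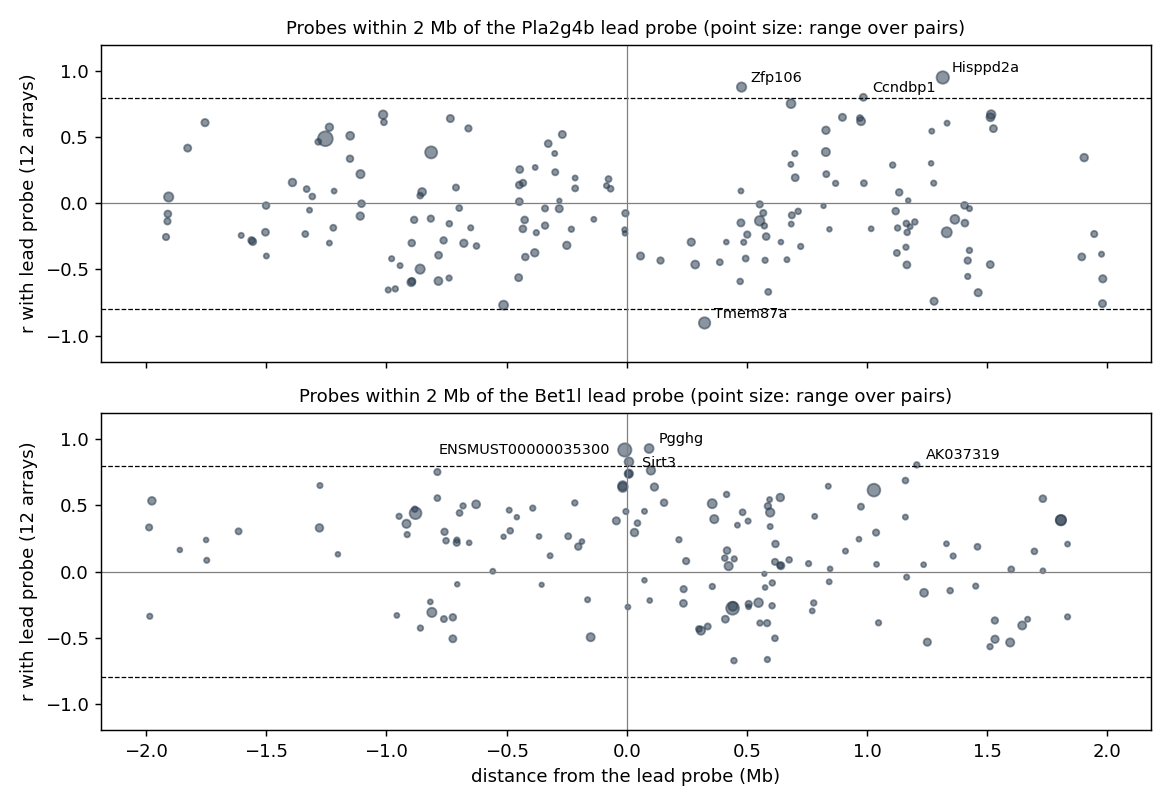
Each point is a kept probe within 2 Mb of the lead probe of Pla2g4b (top) or Bet1l (bottom), by its distance across and the correlation of its 12 log2 ratios with the lead probe upward, and larger points have a wider range over pairs. Dashed lines mark 0.8 and -0.8. Of the correlations of at least 0.8, 3 of 4 lie within 92.9 kb for Bet1l and the other at 1207 kb, and those for Pla2g4b lie 478, 984 and 1315 kb away.

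The other members had 0 or 1 such neighbour each. Near the lead probes of Ywhaz, Pam and Rab7b no probe reached r = 0.8 (of 49, 16 and 94 probes), and near Dusp12, Tmem87a and Serinc3 there was 1 each (Adamts4, Ppip5k1 and Ctsa). These were 1 of 112, 177 and 103 probes (0.893%, 0.565% and 0.971%), where 0.313%, 0.125% and 0.218% of the array did. An r of -0.8 or below was reached by 1 probe each near Ywhaz, Pam and Rab7b and by 2 near Tmem87a. The array shares for these were 0.395%, 0.563%, 0.0609% and 0.151%. Adamts4, a protease of the extracellular matrix 379 kb from Dusp12, had pair means of -1.47, -0.10, -0.82 and 0.09, close to those of the Dusp12 lead probe (-1.70, 0.31, -0.93 and 0.17). Ctse, an aspartic protease next to Rab7b, had a range of 3.00 of its own (pair means -2.03, 0.97, -1.11 and -0.11), but it ran against Rab7b in part (r = -0.343). Up to 2 genes on each side of each member were read by their brightest kept probe, in a fit that called 5.72% of all probes for KO over WT. Among these genes, Pla2g4f (-0.59 ± 0.14), Ehd4 (-0.32 ± 0.08) and Ttpal (-0.49 ± 0.11) were lower and Slc26a9 (0.70 ± 0.16) was higher in KO RNA across all pairs (SE, n = 12 arrays, limma, adjusted p = 0.0296, 0.0331, 0.0279 and 0.0327). None of these 4 calls held with every array left out in turn. Pla2g4f was lost without 4 arrays (1, 7, 9 or 12), Ehd4 without 7 (1, 2, 3, 6, 8, 9 or 10), Ttpal without 4 (7, 8, 9 or 12) and Slc26a9 without 6 (2, 6, 8, 10, 11 or 12), at adjusted p of up to 0.0713. Median centring lost Pla2g4f, Ehd4 and Ttpal (adjusted p of up to 0.602), and deposited backgrounds lost Pla2g4f. By this brightest probe, none of the neighbours by order was called by the limma F test between pairs, where 0.368% of all probes were (lowest adjusted p = 0.0992 for Ric8a, and Cntnap5b had no value in pairs C and D). Other probes of these genes, such as the Zfp106 probe of wider range described above, were not part of this count.

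Among all kept probes with a symbol in the reference table, those most like each lead probe were mostly on other chromosomes, again by r over 12 arrays. The Pla2g4b lead probe has no such symbol and was not a candidate for the others. Pla2g4b was closest to 2 other members, Rab7b (r = 0.936) and a Bet1l probe (r = 0.929). Ywhaz was closest to Anxa4 (0.930) and Gnb1 (0.929), and Bet1l to Krtap16-3 (0.939) and its neighbour Pgghg (0.931). Pam was closest to Khdrbs1 (0.975) and Alas2 (0.954). The pair means were 0.02, 0.74, 0.21 and 0.32 for Khdrbs1 and -2.16, 0.18, -1.28 and -0.85 for Alas2. For Krtap16-3 they were -0.08, -0.11, -0.28 and -0.59. An r compares how ratios rise and fall over the arrays, so a close probe can differ in sign and size, as Khdrbs1 and Krtap16-3 did. Dusp12 was closest to Acer3 (0.933) and Casp4 (0.923). Casp4, an inflammatory caspase for which 129 mice are known to carry an inactivating mutation, had pair means of -2.85, -0.31, -1.55 and 0.03. The strain note is background given for this gene only, and what part alleles had in its likeness to Dusp12 was not tested. Rab7b was closest to Pbld1 (0.929) and Cdnf (0.905), Tmem87a to Ppip5k1 (0.883) and Rbm45 (0.881), and Serinc3 to Slc36a3 (0.922) and Rab6a (0.922).

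Of 39 genes related to the members by family or function, 37 were measured, by 1 probe each. In KO RNA 2 were higher and 2 lower (limma, adjusted p under 0.05), where 2.83% and 2.88% of all probes were. None was called between pairs and 5 had an unadjusted p under 0.05 there, where 4450 of 35349 probes did. A range of at least 1 was found for 4, where 7.97% of all probes had one. The 2 that were higher were Rab38 (0.59 ± 0.14, adjusted p = 0.0323), a Rab protein of lysosome-related organelles, and Ywhae (0.26 ± 0.06, adjusted p = 0.0265), another 14-3-3 protein. The 2 that were lower were the phospholipase Pla2g4f, which is also a neighbour of Pla2g4b and Tmem87a, and Rab7 (-0.32 ± 0.08, adjusted p = 0.0459). Without single arrays the calls were lost for Rab38 (arrays 7 or 9), Ywhae (arrays 3, 9 or 12) and Rab7 (all but arrays 3 and 11). Median centring lost Rab38 and Rab7 (adjusted p = 0.0991 and 0.458), processed signals lost Ywhae (0.0534) and Rab7, and deposited backgrounds lost Rab7. Ranges over pairs of the 6 other 14-3-3 genes were between 0.32 and 0.80. The Ywhaz probes had ranges of 3.26, 1.44 and 0.11, the first being the lead probe, taken because it was the widest. A range from the 1 probe of a related gene is therefore not like for like with that of a lead probe. The 4 other Serinc genes had ranges of 0.22 to 0.89, and Bet1, the closest relative of Bet1l, had a range of 0.30.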

How the data were processed

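The members, the lists and the alternatives were chosen with earlier results of these data known. Spot intensities were extracted with Agilent Feature Extraction 10.1.1.1 on design 014868 under protocol GE2-v5_10_Apr08, per the file headers. Mean intensities and local backgrounds were deposited without normalization, and the deposited processed intensities had been background-subtracted and dye-normalized, per the file headers. A value table gives log2 ratios of KO over WT by the authors, who used limma according to the submitters' processing notes. Its centring is unknown. Column medians ran from -0.011 to 0.0077, and correlations with the ratios used here from 0.991 to 0.997. The deposited flags (0 or 1, a score per spot and dye) record whether a spot was well above background, saturated or outlying, per the file headers.

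Intensities were corrected with normexp (offset 50) and normalized by loess within arrays in R 4.3.3 with limma 3.58.1 (statmod 1.5.0, package data.table in version 1.17.8). Local backgrounds marked as outlying took the median of the array and dye. Outlier-flagged spots (86 to 828 per array) were left out, and spots of a probe were averaged. Probes well above background in KO or in WT RNA on at least 6 of 12 arrays were kept (35562 of 41174, including all 19 member probes). Levels came from Aquantile normalization. Tests used a dye term and Benjamini-Hochberg adjustment over all kept probes. The F test between pairs had a coefficient per pair and could be run on 35349 probes. The KO over WT fit had pair as a random block, with a correlation of 0.0794 estimated from ratios turned to KO over WT. The fits were tested on simulated data, the KO over WT fit only without its pair block. The number of arrays limits the precision.

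Named genes were every probe of the 8 members, the 2 most similar probes of each lead probe, up to 2 neighbouring genes on each side, Ifi202b, Nnt, Dnmt3a, and up to 2 genes of smallest p per list. Further probes in the 2 Mb windows, the markers and the probes of named neighbours were named after their values were seen. Probe positions are those of build mm7, per the file headers. The reference gene table (GRCm38.p6) was used for names (22951 probes) and gene order only. Alternatives changed the background correction, normalization, filter, threshold, block and arrays. An allele shared by all animals is not reported here.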

Additional observations from a re-analysis of the deposited data

Results flagged for a closer look

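Among 38 groups of 4 arrays, 3 held 1 array far from the other 3. Chance flags about 1 in 20 groups. In pair B, array 5 read -0.028 for the Pla2g4b probe A_51_P288549, where the other 3 read 0.34 to 0.40. In pair A, array 4 read -0.31 for the Ywhaz probe A_52_P225260, where the others read -1.10 to -1.01. In pair A, array 1 read -1.89 for the Pam probe A_51_P194070, where the others read -0.27 to 0.04.

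For 7 of the 8 lead probes (all but that of Pam), every array of 1 pair lay above 0 and every array of another below it. These differences chose the members, so no test of them is given. The pair means spanned 3.94 for Pla2g4b, 3.26 for Ywhaz, 1.59 for Bet1l, 2.01 for Dusp12, 1.86 for Rab7b, 2.43 for Tmem87a and 1.57 for Serinc3.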

How the results depend on the processing

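Of the members, 4 passed the size rule under every other background correction, normalization and threshold tried, as also with the authors' ratios. With probes well above background on all arrays 3 did, and leaving out arrays singly gave 3 to 4. Without array 9, pair C lost its only value of the flat Dusp12 probe. Of 168 pair means of 0.5 or more across settings, 0 changed sign. Of 168 lead-probe ranges under alternatives, 149 moved by less than the spread within pairs and 19 by more. The range of Pla2g4b was 2.75 with local backgrounds as deposited and 4.70 with processed signals. Pairs A and B alone, chosen after seeing the data, gave ranges of 2.10 for Pla2g4b, 0.99 for Rab7b, 1.08 for Tmem87a, 0.39 for Serinc3 and 0.33 for Bet1l. Within slide 3, pairs C and D differed by 0.16 for Pla2g4b, 0.79 for Ywhaz, 0.59 for Pam, 0.54 for Bet1l, 0.43 for Rab7b, 0.84 for Tmem87a and 1.098 for Dusp12.

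The array-wide counts depended more on the processing, and the cause was not tested. Genes past the size rule (333) numbered 711 with processed signals, 118 with probes well above background on all arrays, 80 with a range of at least 2, and 337 to 506 with an array left out (most without array 12). Dye term calls (702) were 1276 without background subtraction, 15760 with median centring, 331 with processed signals, and 21 (without array 7) to 514 with an array left out. Calls between pairs (130) were 14 with deposited backgrounds, 361 with median centring, 203 with processed signals, and 29 (without array 3) to 520 (without array 12) with an array left out. KO over WT calls (2033) were 486 with median centring, 3269 with no pair block, and 1052 (without array 7) to 2343 with an array left out, where the correlation of all 12 arrays was kept. The Bet1l dye call was lost with deposited backgrounds (adjusted p = 0.0691) and processed signals (0.199). Each ratio pairs KO with WT RNA of 1 array. The replicate numbers are unique to an array, so no replicate block could be fitted. Dim probes of Ywhaz, Pam and Dusp12 limit what their flat ratios can show.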
